A study of Mus musculus with 13 samples.

Results

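The genes described here are 73 cytosolic ribosomal protein genes among 17280 genes of the filtered count table. They comprise 44 of the large (60S) subunit and 29 of the small (40S) subunit. They were chosen by symbol, from the Rpl, Rps, Rplp and Rpsa names without pseudogenes, among the genes that the authors' filter kept. The choice was made with earlier results of these data known. Ribosomal protein genes with other names, such as Fau and Rps3a1, are not among the 73. The transcripts of the 73 were counted in single microglia, the resident macrophages of the brain, sorted as CD45lo CD11b+ cells from male C57BL/6J mice. The cells went into 13 plates of 192 wells and were read by CEL-Seq2, which counts the 3′ ends of transcripts with molecular tags. The labels name the hypothalamus, cerebellum, hippocampus and cortex as dissected tissue and the methods name the hypothalamus, so the region behind a cell cannot be told apart. All plates used the same 192 well barcodes by design.

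Control mice ate standard chow and HFD mice ate a diet with 60% fat. The strain label is C57BL/6J for every plate, and no allele or drug is listed for them. The labels of all 13 plates state 3 days of HFD, whereas the deposited table of wells lists 6 HFD lengths, namely 1 day, 3 days, 1 week, 4 weeks, 9 weeks and 16 weeks, and a replicate identifier per well. The mice behind an identifier are not stated, and the cell names also carry 4 to 24 weeks whose meaning is not given in the sources used here, so the permutation p-values below measure the spread between identifiers. The single-gene p-values of edgeR for the diets measure the spread between sums. Identifiers are given here with their plate, because the same identifier recurs under other cell names on other plates.

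Each ribosome is built from ribosomal RNA and a full set of ribosomal proteins, so these genes are expressed at high levels in nearly every cell. Their mRNAs typically begin with a run of pyrimidines, the 5′TOP motif, through which mTORC1 and LARP1 set their translation. Many have processed pseudogenes in the mouse genome, and sequence shared with such copies can make a short read ambiguous.

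The values are transcript counts summed over the cells of 1 identifier on 1 plate, from cells with at least 1500 transcripts over the filtered genes. This gave 68 sums of 44 identifiers and 1613 cells, 28 of control cells, 6 of 1 day, 6 of 3 days, 7 of 1 week, 5 of 4 weeks, 6 of 9 weeks and 10 of 16 weeks. A sum held 7 to 76 cells and 22774 to 219199 transcripts, and the median cell of a plate held 2188 to 4676. The ribosomal protein genes contributed 505 to 4895 transcripts per sum, and the 95% Wilson interval of their summed share was 0.24 percentage points wide in the median sum and 0.41 at most, which covers counting error only. In the smallest sum 1 transcript equals 43.9 CPM (a gene's transcripts scaled to a common total over the filtered genes), so single members were imprecise there. The 10 microglial genes of the marker list, among them P2ry12, Tmem119 and Cx3cr1, summed to 22931 to 39402 CPM in every sum. The 18 genes present of the 29 on the lists of astrocytes, neurons, oligodendrocytes, lymphocytes and endothelium reached 293 CPM per list at most, and the neutrophil gene S100a9 reached 12948 CPM in the 4-week sum of M21 on plate 5.

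The most abundant member in control sums was Rplp1, a protein of the stalk that recruits elongation factors, with 825 CPM ± 233 (SD, n = 28 sums of 19 identifiers). It was followed by Rpl4 with 724 ± 148, Rps9 with 713 ± 203 and Rps24 with 620 ± 157. Rps12, Rps29, Rpl21 and Rpl13a were also among the 10 highest, between 503 and 586 CPM. The 10 highest held 26.8% of the summed level, and neighbours in this order differed by less than their SD. CEL-Seq2 tags each molecule once at its 3′ end, so the CPM were not divided by transcript length. At the other end, Rpl39l, a paralog of Rpl39 known from the testis, had 8 transcripts in all sums together, and Rps27l, a p53-responsive paralog of Rps27, had 44.2 CPM on average. The paralog Rps27 reached 227 CPM and Rpl39 reached 201 CPM.

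The largest difference between plates set plates 1 to 3 apart from all others. In control sums, 31 of the 71 members with a mean of at least 50 CPM on either side were more than 4-fold lower than on plates 4 to 13, whereas 22 stayed within 1.5-fold of it. Over all genes of that level, 44 of 4342 (1.01%) were more than 4-fold lower on plates 1 to 3. The remaining members lay between. Plates 1 to 3 share a name stem and their own identifiers (L1 to L4), and no replicate of theirs lies on another plate, so mouse, plate and processing cannot be told apart there. Their 3 control sums are L1 on plate 1 and L3 on both plates 2 and 3.

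The ends of the coding sequences show how far such genes resemble other loci. The last 30 coding bases of the members with the 3 lowest and the 3 highest ratios are printed, because CEL-Seq2 reads lie towards the 3′ end. One of the highest, Rps14, is not shown and the next in order took its place. The stop codon is in capitals, the sequences are from GENCODE M21 transcripts on GRCm38, and the gene strand is shown.
Rps29: aaggacataggcttcattaagttggacTAA
Rpl23a: gatgttgccaacaagattgggatcatcTAA
Rpl21: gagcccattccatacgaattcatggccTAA
Rpl13a: gtcctcaagaccaacggactcctggtgTGA
Rpl23: attgcatccaacgcaggcagcattgcaTGA
Rpl34: gcacaagcacagagtcagaaagcaaaaTAG
Those bases lie at chr12:69157813-69158681 (minus strand, over 2 exons) for Rps29, at chr11:78180983-78181168 (minus, 2 exons) for Rpl23a and at chr5:146835924-146835953 (plus) for Rpl21. For Rpl13a they lie at chr7:45125946-45125975, for Rpl23 at chr11:97778082-97778111 and for Rpl34 at chr3:130726875-130726904, all on the minus strand in 1 exon. The same 30 bases occurred in transcripts of 6 other annotated genes for Rps29, 4 for Rpl23a and 24 for Rpl21, nearly all pseudogenes. They occurred in 2 for Rpl13a, 1 for Rpl23 and 7 for Rpl34. Nearer the 3′ end the order differed. Of the 30-base windows in the last 300 transcript bases, 52.4% for Rps29, 82.3% for Rpl23a and 0.0% for Rpl21 occurred in another gene. For Rpl13a, Rpl23 and Rpl34 it was 0.0, 22.5 and 70.8%.

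All 31 members more than 4-fold lower had such a copy elsewhere, with a median of 5 genes and a range of 1 to 24. Of the 40 others, 32 had one, with a median of 2 and a maximum of 13. Across the 71 members, the Spearman correlation between the number of copies and the log2 ratio of plates 1 to 3 over 4 to 13 was -0.46, a description over genes that share libraries. For the share of 30-base windows of the last 300 transcript bases found in another gene, it was -0.22. The median of that share was 67.9% in the 31 (0.0 to 100%) and 53.5% in the 40 others (0.0 to 97.0%). The annotation used by the authors may differ from the one searched, and the part of shared sequence in the plate difference was not tested. The tables of plates 1 to 3 listed 20858 genes, against 22063 for plates 6 to 9 and 27462 for plates 4, 5 and 10 to 13.

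Rps29, a protein of the 40S head, was not counted in any of the control sums of plates 1 to 3. Its 25 control sums on plates 4 to 13 ranged from 307 to 889 CPM with a median of 609. Against the 3 counts that a total of 0 in those sums allows, Rps29 was at least 127-fold lower in the control sums. With the HFD sums included, Rps29 averaged 0.0, 11.9 and 0.0 CPM on plates 1, 2 and 3. Rpl23a, at the exit of the peptide tunnel, had 0, 0 and 9.13 CPM on plates 1, 2 and 3, against 235 to 585 elsewhere with a median of 455. Rpl21 had 14.5, 19.1 and 4.56 CPM, against 404 to 920. The groups did not overlap for these members.

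Rpl13a, a 60S protein often taken as a reference gene, behaved otherwise. It had 494, 587 and 516 CPM on plates 1 to 3, inside the 271 to 811 of the other plates (median 504). Rplp1 had 678, 906 and 767 CPM, against 330 to 1419. Rpl19, another common reference, took the opposite side, with 9.68, 9.54 and 4.56 CPM against 199 to 497 elsewhere. Rps18 had 174, 124 and 105 CPM, within 76.6 to 415. Rps6, the S6 kinase substrate used as a readout of mTORC1, had 9.68, 14.3 and 4.56 CPM against 156 to 497. On plates 1 to 3 all 3 control sums, which are of L1 and L3 only, lay under all 25 others for 33 of the 71 members. The same held for 42 of 4342 genes (0.967%). Of the 33, 30 were among the 31 lower by more than 4-fold. The exception was Rpl15, which had 0 CPM in its lowest sum on plates 4 to 13.

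Members of one structure split. The stalk proteins Rplp0 and Rplp1 differed by -0.13 and -0.08 on the log2 scale of CPM + 5, and Rplp2 by -0.74. Rpl5 and Rpl11, which carry 5S RNA and also bind MDM2, were both low, by -3.75 and -3.43. Around the peptide exit tunnel Rpl4 (-0.38), Rpl22 (-0.09) and Rpl26 (-0.12) lay near equal, while Rpl17 (-4.39), Rpl19 (-4.68), Rpl23a (-5.75) and Rpl31 (-3.70) lay far below. At the mRNA path Rps3 (-0.20) and Rps14 (-0.03) contrasted with Rps28 (-3.30) and Rpsa (-3.71). Of the 60S members 17 of 43 were more than 4-fold lower and of the 40S members 14 of 28. Just inside the limit lay Rpl27a (-2.38), and just outside it Rpl3 (-1.83). As a group the 31 fell from 1.0% of transcripts on plates 4 to 13 to 0.067%, and the 40 others from 1.39% to 0.979%, giving a summed share of about 1% on plates 1 to 3.

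**Figure D1:**
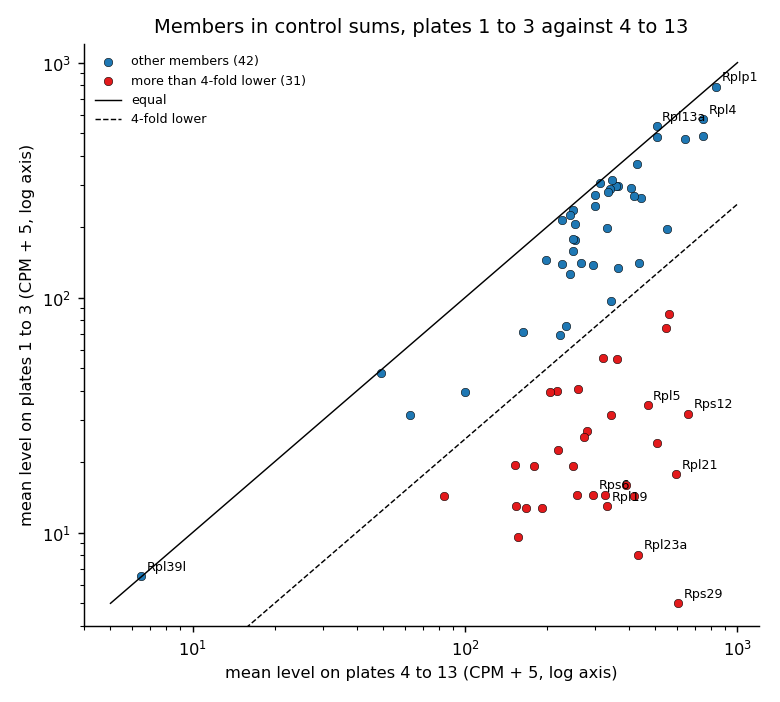
Mean CPM + 5 of each of the 73 members in the 3 control sums of plates 1 to 3 (vertical) against the 25 control sums of plates 4 to 13 (horizontal), both on log axes. Red points mark the 31 members more than 4-fold lower (under the dashed line); Rplp1, Rpl4 and Rpl13a lie near the solid line of equal levels.

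Genes outside the symbol rule were in the low group as well. Of the 44 genes more than 4-fold lower, 13 were not members, among them Gapdh (17.2 against 329 CPM), Fau, which encodes the ribosomal protein eS30 (17.5 against 333), Tpt1 (40.9 against 552), Ppia (14.3 against 192) and Ftl1 (20.5 against 184). These 5 were picked by hand. The largest falls were those of Gm43333 (3.04 against 2561 CPM) and Enpp2 (0 against 181 CPM), and Gm9843, Zfp112, Rpl10-ps3, Cox7c, Cox5b and Cgnl1 made up the rest. Over the 28 control sums, the 5 non-members whose level followed the summed share most closely were Tpt1 (Pearson r = 0.92), Fau (0.83), Ppia (0.83), Gapdh (0.80) and Cox5b (0.78), of 3788 genes compared. All of these points share the plates. Over the 25 control sums of plates 4 to 13, r was 0.65 for Tpt1, the highest of all genes, 0.41 for Cox5b, 0.39 for Ppia, 0.19 for Fau and -0.08 for Gapdh.

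**Figure D2:**
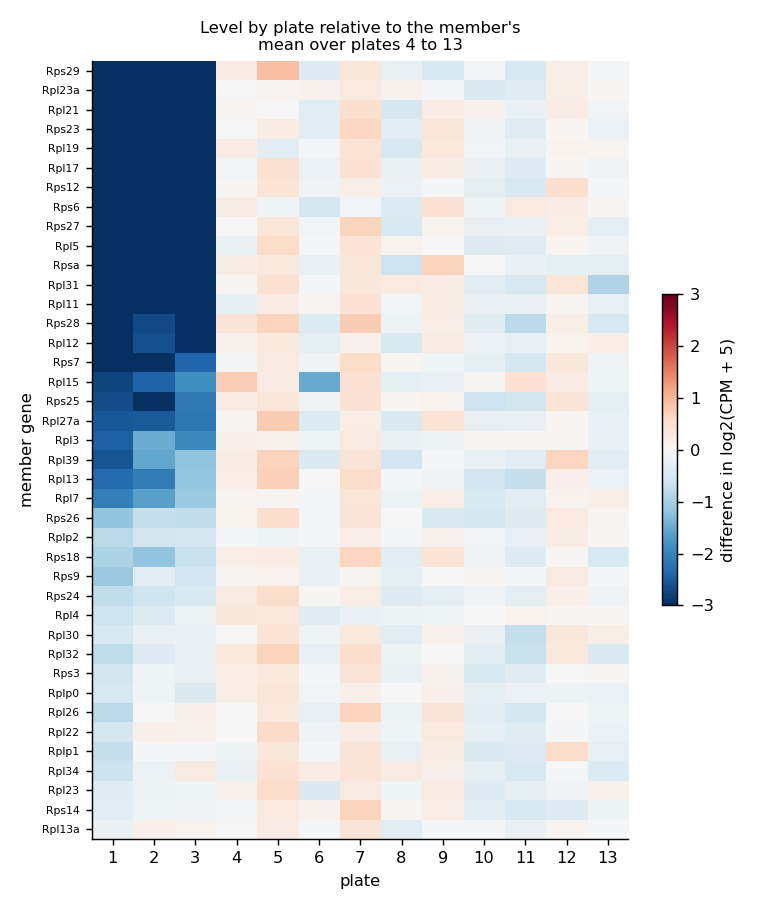
Each row is a member named in the text and each column a plate; colour gives log2(CPM + 5), averaged over all sums of the plate, minus the member's mean over plates 4 to 13, from -3 (blue) to 3 (red). The rows are ordered by their ratio, and the upper rows are dark blue on plates 1, 2 and 3 only.

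Beyond plates 1 to 3, the summed share differed between plates within a narrower range. Control sums ranged from 0.943% (plate 1) to 1.15% (plate 2) on the first plates and from 1.89% (M1, plate 11) to 3.44% (M1, plate 7) on the others. Across plates, the ribosome biogenesis list (32 genes, such as Ncl, Fbl and Nop56) averaged between 1177 and 1430 CPM, while elongation factors and other TOP mRNAs went from 2029 CPM on plate 1 to 4461 CPM on plate 5. Within plates, the Spearman correlation of a cell's share with its transcripts lay between -0.15 and 0.33, a description over cells that share a library.

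**Figure D3:**
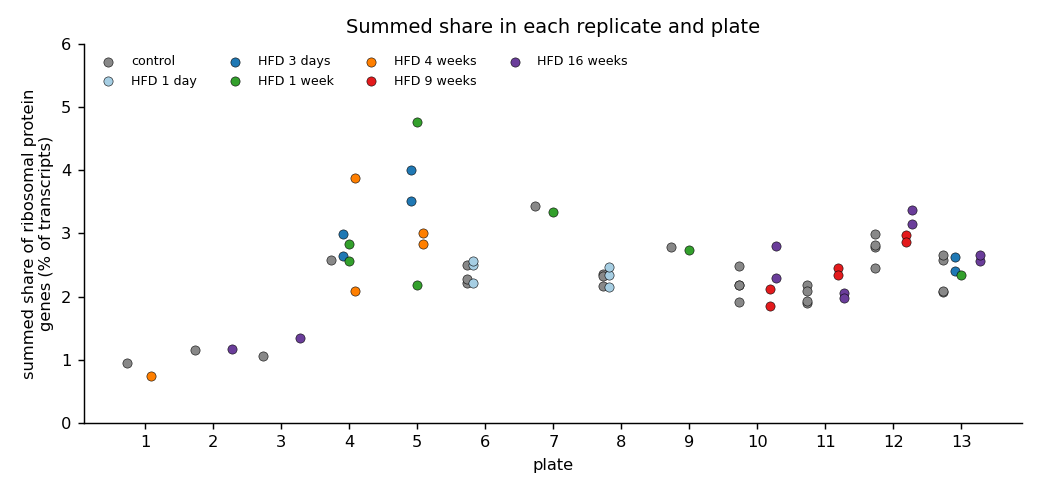
Percent of transcripts from ribosomal protein genes in each of the 68 sums, by plate (horizontal) and diet (colour); each point is 1 identifier on 1 plate. All sums of plates 1 to 3 lie under 1.4% and all others over 1.8%.

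Plates 10, 11 and 12 carried the same 8 identifiers (M1 to M8, of control, 9-week and 16-week mice), so each identifier could be compared with itself across these plates. Whether an identifier stands for the same mouse on each plate is not stated. The summed share was highest on plate 12 in 8 of 8 identifiers. On plate 10 it was 2.49, 1.92, 2.19 and 2.18% in the controls M1 to M4, 2.80 and 2.30% in M5 and M6 (16 weeks) and 1.84 and 2.12% in M7 and M8 (9 weeks). On plate 12 the same identifiers had 2.99, 2.46, 2.78, 2.82, 3.37, 3.14, 2.98 and 2.86%. The mean was 2.23% ± 0.307 on plate 10, 2.12% ± 0.197 on plate 11 and 2.93% ± 0.27 on plate 12 (SD, n = 8). In all 8 pairs, plate 12 stood 1.20-fold to 1.62-fold over plate 10.

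Of 65 members tested, 24 were called as different between the 3 plates (edgeR quasi-likelihood F test with the identifier as block, Benjamini-Hochberg over all genes). Over all genes 95 of 998 were called (9.52%). DESeq2 called 18 of 65 members and 50 of 998 genes. With all genes of at least 10 counts, edgeR called 10 of 72 members and 61 of 10633 genes, and without M5 it called 16 of 65 members and 65 of 1016 genes. All 24 were higher on plate 12 than on plate 10, a direction that 45 of all called genes took (4.51% of those tested). The F test takes the 3 plates together, so a call need not mean a difference between plates 12 and 10. Rpl21, Rpl37 and Rps29 had log2 fold changes of only 0.03, 0.13 and 0.18 there. For plate 11 over plate 10 they had -0.45, -0.55 and -0.57. The 24 comprised 11 of 37 tested 60S members and 13 of 28 tested 40S members. Over the members tested, the median log2 fold change of plate 12 over plate 10 was 0.28, against -0.00 over all genes.

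Rplp1, the stalk protein, had the smallest p. It ranged from 462 to 811 CPM on plate 10 (median 686), from 523 to 851 on plate 11 (median 642) and from 803 to 1624 on plate 12 (median 1361). Its log2 fold change of plate 12 over plate 10 was 0.90 (edgeR adjusted p = 6.92e-10). Plate 12 was its highest in 7 of 8 identifiers, with the control M2 as the exception.

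Rps12, a protein of the 40S beak, had medians of 562, 524 and 970 CPM on plates 10, 11 and 12, with 799 to 1343 on plate 12 (log2 fold change 0.71, edgeR adjusted p = 2.89e-08). Rpl30, at the subunit interface, had 344, 246 and 501 CPM, with 412 to 547 on plate 12 (0.50, edgeR adjusted p = 1.43e-05). Both were highest on plate 12 in all 8 identifiers, as were 7 members in total. Rps25, used by several viral and cellular IRES elements, rose from a median of 239 to 456 CPM (0.95, edgeR adjusted p = 8.87e-05). Rpl13 rose from 340 to 513 CPM and Rpl32 from 236 to 442 (log2 fold changes 0.65 and 0.62, edgeR adjusted p = 1.83e-04 and 2.71e-04).

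Other members of the same particles were not called. Rpl4 averaged 773, 846 and 798 CPM on plates 10, 11 and 12 (log2 fold change -0.05), Rpl3 averaged 358, 357 and 359 CPM (-0.08) and Rplp0 275, 297 and 301 CPM (0.11). Of the stalk list 1 of 3 was called and of the 5S particle 0 of 2. Of the exit tunnel proteins 3 of 8 tested were called (Rpl39, Rpl31 and Rpl23a) and of the mRNA path 3 of 6, among them Rps26 and Rps28, each higher on plate 12. Of the reference genes, Rpl13a had a log2 fold change of 0.06, Rps18 of 0.07, Rpl19 of 0.12 and Rps6 of 0.31, none called.

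**Figure D4:**
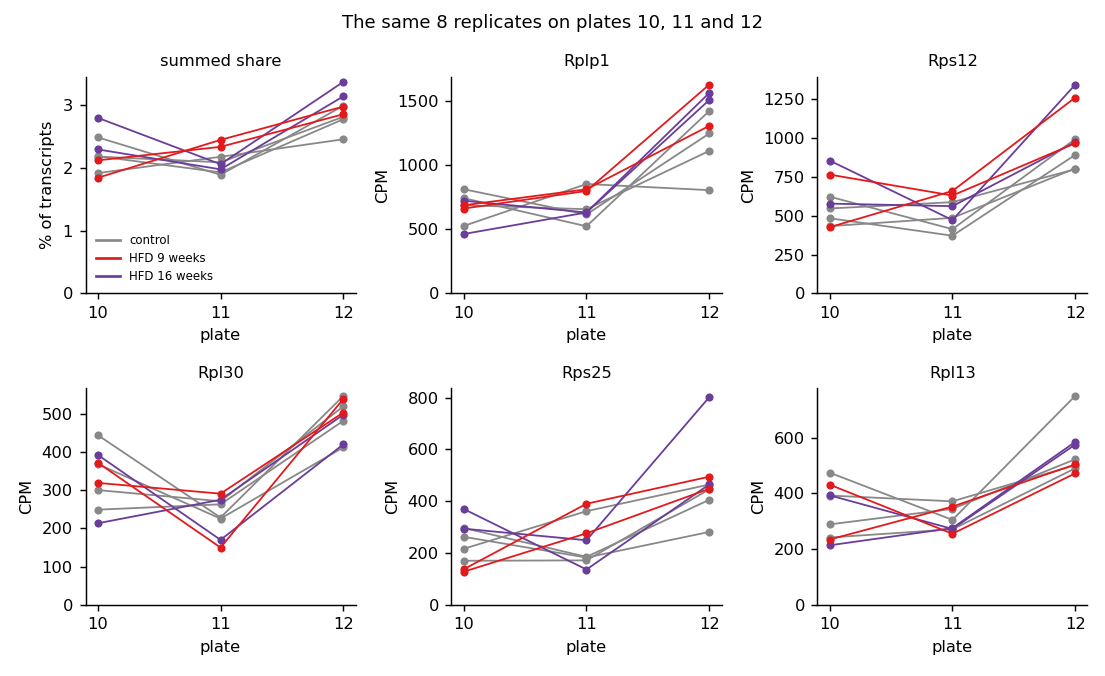
Summed share (% of transcripts) and CPM of the 5 members with the smallest p on plates 10, 11 and 12; each line is 1 of 8 identifiers, coloured by diet. Plate 12 is the highest point of all 8 lines for the summed share and of 7 for Rplp1.

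Outside the rule, 2 of the 3 tested further ribosomal proteins were called as well, Rps3a1 (0.50) and Fau (0.19), and of 5 tested elongation factors and other TOP mRNAs Tpt1 (0.48). Of 10 microglial genes 1 was called, Gpr34. The median cell held 2613 transcripts on plate 12, against 4126 and 4676 on plates 10 and 11. Among cells under 3500 transcripts, the pooled share was 2.14% on plate 10 (38 cells), 2.03% on plate 11 (27 cells) and 2.96% on plate 12 (119 cells). From 3500 transcripts upwards it was 2.20%, 2.12% and 2.72% (16 cells on plate 12). There the identifiers of plate 12 ran from 1.86 to 3.59% and overlapped those of plate 10 (1.86 to 2.75%) and plate 11 (1.899 to 2.49%). With only the cells under 3500 transcripts, 13 members and 248 genes were left to test. In that fit 0 members and 6 genes (2.42%) were called (edgeR, with an adjusted p of 0.052 for Rplp1). Of the 13, 11 were higher on plate 12 than on plate 10, with a median log2 fold change of 0.24. The share of transcripts from genes the authors removed was 26.9%, 13.6% and 20.6% on plates 10, 11 and 12. With all 17727 genes common to the plates as the denominator, the mean share was 1.64% ± 0.274, 1.83% ± 0.142 and 2.33% ± 0.262 (SD, n = 8). Plate 12 was then highest in 7 of 8 identifiers, M2 being the exception. This denominator was an alternative chosen after seeing the data.

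The pyrimidine run at the start of the transcript was looked for in RefSeq start sites (GRCm38.p6) of 54 members that the table holds. A run of at least 8 bases C or T within 10 bases before to 20 after the start was found in 22 of them (40.7%), and in 13.01% of 27025 genes with a start site. The windows of the first 4 called members with a start site are printed with that run in capitals.
Rps12: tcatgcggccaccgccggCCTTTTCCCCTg
Rps25: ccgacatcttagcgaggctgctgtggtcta
Rpl13: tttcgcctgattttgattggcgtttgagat
Rpl39: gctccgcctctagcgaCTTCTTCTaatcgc
They lie at chr10:23787190-23787219 (minus strand), chr9:44407704-44407733 (plus), chr8:123102340-123102369 (plus) and chrX:37085203-37085232 (minus). In the windows of Rps25 and Rpl13 no such run is present, which concerns these letters at the annotated start only.

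Plates 4 and 5 shared 6 identifiers, and 0 of 68 members tested were called between them by edgeR, against 5 of 1223 genes (0.409%). DESeq2 called 0 members and 7 of the 1223 genes (0.572%). The sums spread widely there. The 1-week sum of M23 held 2.57% on plate 4 and 4.77% on plate 5, the highest of all sums, and M21, M24 and M25 were higher on plate 5 as well, with 3.00 against 2.08%, 4.01 against 2.99% and 3.51 against 2.64%. M22 had 2.83% on plate 4 and 2.18% on plate 5, and M20 (4 weeks) 3.88 and 2.83%. Of the 68 members 52 were higher on plate 5, with a median log2 fold change of 0.22, against -0.01 over all genes. The microglial list moved alike, 9 of its 10 genes being higher with a median of 0.21. Without M23 it was 35 of 68 with a median of 0.04, and among cells under 3500 transcripts the direction turned, with 18 of 40 higher and a median of -0.12. Cells with at least 5 UMIs of Cd74 and the MHC class II genes H2-Eb1, H2-Aa and H2-Ab1, which serve antigen presentation, held more of these transcripts. On plate 5, 10 such cells had a pooled share of 6.70%, against 2.92% in the other 69, and on plate 4, 23 such cells had 3.68% against 2.49% in 95. Of the 10, 5 were of M23, 3 of M24 and 2 of M21. Of the 23, M23 and M24 had 7 each, M20 and M21 3 each, M25 2 and M26 1. Single cells are not replicates, and cell kind, identifier and diet cannot be told apart in these pooled shares. The median cell shares were closer on plate 4, 2.80 against 2.40%, and lay at 7.06 against 2.76% on plate 5. These cells also held more transcripts, with medians of 6069 against 4380 on plate 4 and 6061 against 4042 on plate 5. Border macrophage and monocyte lists averaged 112 and 98 CPM on plate 4 and 132 and 365 CPM on plate 5. S100a9 averaged 124 and 2218 CPM on these plates. The part of these lists in the spread was not tested. Between plates 2 and 3 edgeR called 0 of 43 members and 20 of 4365 genes (0.458%), with 1 residual degree of freedom. DESeq2 called 0 members and 0 genes there.

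The diets were compared within the plates that held both control cells and the HFD length in question. Across the 6 lengths, 0 members were called by edgeR (plate as block, adjusted p under 0.05 over all genes) and 0 by DESeq2. The background was as low: 0 of 1116 genes (0.0%) at 1 day, 0 of 661 (0.0%) at 3 days, 3 of 1071 (0.28%) at 1 week, 0 of 1856 (0.0%) at 4 weeks, 1 of 1055 (0.0948%) at 9 weeks and 0 of 936 (0.0%) at 16 weeks. Of the 73 members 69 passed the filter in at least 1 length and 53 in every one. At an unadjusted p under 0.05, 2, 4, 7, 0, 7 and 9 members were left, in the same order of lengths. Beside them stood 63, 51, 66, 25, 84 and 67 genes in all. The 9-week and 16-week comparisons share the controls of plates 10 to 12, and plates 4 and 13 serve several lengths, so the comparisons are not independent. The edgeR fits of the diets took each sum as a replicate, although the 18 sums at 9 weeks came from 4 control and 2 HFD identifiers and the 28 sums at 16 weeks from 9 and 5, so their p-values are too small where identifiers recur on plates.

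At 1 day, on plates 6 and 8, control sums held 2.21, 2.28 and 2.49% and 2.16, 2.33 and 2.36%, and HFD sums 2.22, 2.503 and 2.56% and 2.16, 2.34 and 2.47%. They overlapped on both plates. The difference was 0.07 percentage points (exact permutation of identifiers, two-sided, p = 0.375, adjusted over the 6 lengths 0.567; 6 against 6). The log2 fold changes were split, 36 of 63 tested being higher, with a median of 0.01. The 3 with the smallest p were Rpl21 (-0.46, SE 0.19), Rpl23 (0.42, SE 0.18) and Rpl23a (0.34, SE 0.18), with edgeR adjusted p from 0.624.

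At 3 days, the length that the labels state, the only control of plate 4 (M26, 7 cells) had 2.57% and the HFD sums M24 and M25 had 2.99 and 2.64%. On plate 13 the controls had 2.58, 2.66, 2.08 and 2.09% and the HFD sums 2.41 and 2.63%. The controls at 2.58 and 2.66% (M11 and M12) are named 24 weeks, and the HFD sums and the other controls 14 weeks. The difference of 0.20 points did not pass (exact permutation, two-sided, p = 0.378, adjusted 0.567; 5 against 4 sums). Of 53 members tested 34 were higher, with a median of 0.11, against 0.01 for all genes. With at least 2500 transcripts per cell the direction turned, with 22 of 46 higher and a median of -0.02. Without single replicates the median ranged from 0.02 to 0.14, with 0.02 without M16, 0.05 without M24, 0.06 without M15 and 0.07 without M26. Without plate 13 it was 0.25, against 0.10 over all genes. With all genes of at least 10 counts it was 0.31, against 0.25 over all genes of that fit. With controls of the same weeks only, all 4 HFD sums lay above the controls of their plate, and the difference was 0.34 points (exact permutation, p = 0.111). That design has too few assignments for a p under 0.05, so the test could not decide. In it 53 of 68 members were higher, with a median of 0.24. Rps7 (0.88, SE 0.36), Rpl11 (0.75, SE 0.31) and Rpl13 (0.56, SE 0.23) had the smallest p, each with an edgeR adjusted p of 0.540.

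At 1 week the members leaned lower, 42 of 68 tested, with a median of -0.09. With all genes of at least 10 counts the median was 0.04, as it was over all genes of that fit, and without plate 7 it was -0.01, against -0.02 over all genes. The share hardly moved. It was 3.44% in the control against 3.34% in HFD on plate 7, 2.79 against 2.74% on plate 9, 2.57% against 2.83 and 2.57% on plate 4, and 2.34% in M13 on plate 13 beside the 4 controls named above. The difference was -0.01 points (exact permutation, two-sided, p = 0.933, adjusted 1.0; 7 against 5 sums). Rps28, a small protein near the mRNA exit, had -0.77 (SE 0.24), Rpl11 0.48 (SE 0.20) and Rps23, of the decoding centre, -0.49 (SE 0.21), with edgeR adjusted p from 0.494. All 8 tested proteins of the exit tunnel had negative values, from -0.58 to -0.04, none called. On the same plates edgeR called H2-Aa and H2-Ab1 of the MHC class II list.

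At 4 weeks the control and the HFD sum of plate 1 had 0.943 and 0.746%, and on plate 4 the control had 2.57% and the HFD sums M20 and M21 3.88 and 2.08%. Those HFD sums of plate 4 lay on both sides of the control. The difference of 0.11 points had p = 1.0, and the smallest p this design allows is 0.167 (exact permutation, two-sided, 2 against 3 sums). Rpl7 (-0.72, SE 0.42), Rpl4 (0.57, SE 0.33) and Rpl11 (0.96, SE 0.60) had the smallest p (edgeR adjusted p = 1.0). Of 69 members tested 35 were higher, with a median of 0.04. Without M20 13 of 66 were higher, with a median of -0.39, and without M21 the median was 0.25. Without plate 1 it was 0.34, with 51 of 70 higher and 0.13 over all genes, and without MHC class II cells it was -0.22.

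At 9 weeks, the HFD sums M7 and M8 had 1.84 and 2.12% on plate 10, 2.45 and 2.34% on plate 11 and 2.98 and 2.86% on plate 12. The 4 controls had 1.92 to 2.49, 1.89 to 2.18 and 2.46 to 2.99%. On plate 10 the HFD mean was lower than the control mean by 0.21 points, and on plates 11 and 12 it was higher by 0.37 and 0.16. The mean difference of 0.11 points had p = 0.333 (exact permutation, two-sided, 2 identifiers against 4), where 0.0667 is the smallest p allowed. Rpl17, next to the tunnel exit, had 0.49 (SE 0.16, edgeR adjusted p = 0.204, and 0.738 with 1 sum per identifier over linked plates), Rps12 0.37 (SE 0.14) and Rpl39 0.51 (SE 0.21). Jun was the gene called, with a negative value.

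At 16 weeks most members leaned upwards, 53 of 62 tested, with a median of 0.16 against -0.01 over all genes, although 0 were called. The HFD sums held 1.18% against 1.15% on plate 2 and 1.34% against 1.06% on plate 3. On plate 10, M5 and M6 had 2.80 and 2.30% against 1.92 to 2.49% in 4 controls, on plate 11 2.06 and 1.98% against 1.89 to 2.18%, and on plate 12 3.37 and 3.14% against 2.46 to 2.99%. On plate 13, M9 and M10 had 2.66 and 2.56% against 2.08 to 2.66%. The HFD sums exceeded the mean of the controls beside them in 9 of 10 cases, and the groups overlapped on plates 10, 11 and 13.

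The mean difference was 0.23 points (exact permutation of 9 control and 5 HFD identifiers, two-sided, p = 0.0178), and adjusted over the 6 lengths p = 0.107, so the difference did not pass the correction. Without M5 it was 0.17 points with p = 0.107, and without plate 12 0.18 points with p = 0.0511. With all genes common to the plates as the denominator it was 0.16 points with p = 0.0711. Without plates 1 to 3 it was 0.28 points with p = 0.0357 (all exact permutation). The controls of plate 13 named 24 weeks (M11 and M12) had 2.58 and 2.66%, near the HFD sums of the same weeks, and those named 14 weeks (M15 and M16) had 2.08 and 2.09%. With controls of the same weeks only, the difference was 0.19 points (exact permutation, p = 0.0389).

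Rpl12, of the stalk base, had the smallest p at 16 weeks, with a log2 fold change of 0.65 (SE 0.18, edgeR adjusted p = 0.179). On plate 10 the controls M1 to M4 had 534, 275, 301 and 178 CPM and the HFD sums M5 and M6 694 and 277. On plate 11 they had 305, 273, 357 and 226 against 433 and 391, and on plate 12 405, 341, 353 and 412 against 520 and 641. Plate 13 had 351, 570, 152 and 207 CPM in controls against 510 and 1099 in M9 and M10. HFD sums were above all controls on plates 11 and 12 and not on plates 10 and 13. Plates 2 and 3 held 83.6 and 19.3 CPM in HFD and 42.9 and 73.0 in control, at the low level of those plates. Without plate 3 Rpl12 was called (edgeR adjusted p = 0.0247), the one call of any member over the alternatives run for the diets. The fit without plate 3 called 2 of 875 genes in all (0.229%). That fit too counted M1 to M6 once per plate. With 1 sum per identifier over linked plates, the log2 fold change of Rpl12 was 0.66 and its edgeR adjusted p was 0.476.

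Rpl13a followed with 0.32 (SE 0.11) and Rpl26, which binds p53 mRNA, with 0.38 (SE 0.14), both with an edgeR adjusted p above 0.4. Rpl13a in HFD was 621 and 647 CPM against 587 and 516 in control on plates 2 and 3. The stalk proteins had 0.16, 0.14 and 0.25, Rpl5 -0.00 and Rpl11 0.17. Rps6 had -0.00 (SE 0.18), Rpl19 0.04 (SE 0.17) and Rps18 0.23 (SE 0.18). Of the 5 tested elongation factors and other TOP mRNAs all were positive, between 0.01 and 0.35, and Ncl, a nucleolar protein and the one tested gene of the biogenesis list, had -0.40, none called.

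**Figure D5:**
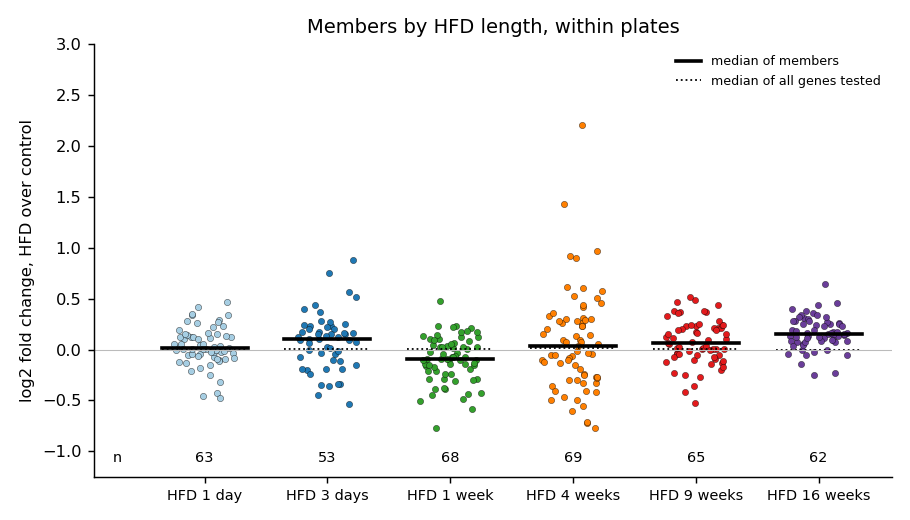
Log2 fold change of HFD over control for each member tested (points), by HFD length; solid bars give the median of the members, dotted bars that of all genes, and n the members tested. The median is 0.16 at 16 weeks and -0.09 at 1 week, and the widest spread is at 4 weeks.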

How the data were processed

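Single microglia were sorted into 13 plates and sequenced by CEL-Seq2. The authors mapped reads to GRCm38/mm10 with STAR and counted them with featureCounts inside snakePipes, and deposited estimated counts per gene and well (expected counts, whole UMIs corrected for tag collisions). A filtered table of 17280 genes, which leaves out 447 of the 17727 genes common to the plates, set the genes used, and 769 of its columns were not used. Diet, HFD length and identifier came from the deposited table of wells. The members and lists were chosen with earlier results of these data known. Cells with at least 1500 transcripts were summed by identifier and plate (at least 5 cells), rounded and tested with edgeR 4.0.16 (quasi-likelihood, TMM, default filter), with DESeq2 as an alternative; the shares were tested by exact permutation of identifiers within linked plates. Scripts were tested on simulated data. Genes named are the 10 with the highest control level, those with the smallest p per comparison, listed structures, reference genes and the 5 genes most like the summed share; Gapdh-like genes and examples on plates 1 to 3 were chosen after their values were seen. Linked identifiers are the same by the table of wells, so the plate test kept them as a block. Alternatives changed the unit, tool, scaling, filters, denominator, minimum transcripts and left-out replicates and plates. Members with near-identical copies are uncertain. Some members that this rule names are not reported here.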

Additional observations from a re-analysis of the deposited data

Results flagged for a closer look

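The summed share and single members were examined in 60 groups of 4 control sums on 1 plate, and 2 groups had a sum far from the others, where chance marks about 1 in 20 groups. Rplp0 in the control M1 of plate 10 stood at 326 CPM, and the nearest of the other 3 controls at 241. Rps29 in the control M4 of plate 11 stood at 655 CPM, and the nearest of the others at 400 CPM.

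Another 4 genes with names of this family were counted in the plate tables though the filtered table leaves them out. Rpl29 had 911 transcripts, Rpl7a 1068, Rps2 1478 and Rps4x 1800. By plate, Rpl7a ranged from 27.4 to 363 CPM and Rps4x from 69.9 to 606, each lowest on plate 1.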

How the results depend on the processing

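The count of called members per HFD length was the same in 142 of 143 alternatives. The exception was 1 of 62 members (Rpl12) at 16 weeks without plate 3, where 2 of 875 genes were called (0.229%). The summed share kept its direction and its side of an unadjusted p of 0.05 in 115 of 139. At 1 week it reversed to 0.081 points with all genes common to the plates as denominator. It also reversed to 0.015 with at least 1000 transcripts per cell and 0.0063 as the mean over cells. Further reversals were 0.056 with controls of the same weeks, 0.0195 without plate 7 and 0.0028 without plate 9. Without single replicates it ranged from -0.055 to 0.021. At 4 weeks it reversed to -0.14 as the mean over cells, -0.19 without MHC class II cells, -0.10 as a log2 ratio and -0.20 without plate 4, with -0.34 to 0.55 without single replicates. At 9 weeks it was -0.027 without plate 11. At 16 weeks it was 0.16 with all genes common to the plates, 0.20 with at least 2500 transcripts and 0.18 without plate 12. Each had an unadjusted p above 0.05, where the reported 0.23 has 0.0178 before adjustment and 0.107 after it (exact permutation). Without single replicates it was 0.17 to 0.30, the lowest without M5. Between plates 4 and 5, 1 of 40 members was called among cells under 3500 transcripts (16 of 332 genes, 4.82%), 1 of 66 without MHC class II cells (8 of 887 genes) and 0 to 1 without single replicates (1 of 68 without M20, beside 8 of 1228 genes). Between plates 10, 11 and 12, the count was 10 with genes of at least 10 counts (0.574% of all genes) and 0 among cells under 3500 transcripts (2.42% of all genes). It was 16 to 28 without single replicates (5.8 to 8.4% of all genes). With no replicate block it was 23 (7.21% of all genes), against 24 with it (9.52%). Rpl7 at 4 weeks reversed to 0.0675 with no plate block. The causes were not tested. The controls of the same weeks, the sets without MHC class II cells or without plates 1 to 3, the log2 ratio and the cells under 3500 transcripts were chosen after seeing the data. For the diets no paired analysis was possible because each replicate identifier, taken with the stem of its cell name, carries a single diet.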
